A study of Mus musculus with 6 samples.

Results

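The transcripts described here are those of 10 mouse genes for germ-cell RNA-binding and small-RNA proteins: Dazl, Ddx4, Ybx2, Patl2, Lsm14b, Eif4enif1, Dicer1, Ago2, Tdrd1 and Mael. They were chosen by gene name, all 10 were found among the 54532 genes of the count table, and all 10 passed the filter on low counts. Polyadenylated RNA of oocytes from C57BL/6J mice, aged 6 to 7 weeks per the labels, was sequenced in 6 libraries. The 3 control libraries carry only the label of controls, and the labels do not say whether these mice were injected. The 3 AMH libraries came from mice that received 300 ng of recombinant mouse anti-Müllerian hormone (AMH, a hormone of granulosa cells) by a daily injection into the peritoneum, begun at an age of 21 days. The labels do not give the number of oocytes or of mice behind a library, so the p-values below measure the spread between libraries, which may be technical.

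A growing oocyte makes far more mRNA than it translates and keeps much of it silent in ribonucleoprotein particles until meiosis resumes. Y-box, Pat1-family, Lsm14 and eIF4E-binding proteins store and silence these messages, and DAZL, which binds U-rich sequences, promotes the translation of some of them during maturation. Small RNAs act beside this system. DICER1 cuts long double-stranded RNA into endogenous siRNAs that AGO2 uses to cleave targets, and the piRNA pathway, in which DDX4, TDRD1 and MAEL take part, silences transposons in germ cells. In mouse oocytes loss of the endo-siRNA pathway is known to disturb meiosis, while piRNA genes are known mainly for their need in the male germ line.

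Promoter sequences were examined first, because several germ-cell genes are known to be silenced in body cells through an E-box bound by MGA and MAX. The motif searched was CACGTG, which reads the same on both strands, in the 250 bases before each annotated gene start (RefSeq, GRCm38.p6). Of the 10 genes 9 had an entry, and Ddx4, Tdrd1 and Mael held the motif in at least 1 of their promoters. Among all RefSeq entries, 6.86% of 27025 genes and 6.02% of 32851 promoters held it. A promoter of each that holds it is shown 5′ to 3′ on the gene's strand with the motif in capitals, for Ddx4 at chr13:112652311-112652560 (minus strand), for Mael at chr1:166238745-166238994 (minus strand) and for the first of the Tdrd1 starts at chr19:56825959-56826208 (plus strand).
Ddx4: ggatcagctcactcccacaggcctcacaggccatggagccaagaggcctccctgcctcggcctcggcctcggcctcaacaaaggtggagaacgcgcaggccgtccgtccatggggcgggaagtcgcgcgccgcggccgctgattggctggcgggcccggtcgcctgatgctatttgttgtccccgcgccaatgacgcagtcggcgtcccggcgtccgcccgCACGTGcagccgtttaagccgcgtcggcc
Mael: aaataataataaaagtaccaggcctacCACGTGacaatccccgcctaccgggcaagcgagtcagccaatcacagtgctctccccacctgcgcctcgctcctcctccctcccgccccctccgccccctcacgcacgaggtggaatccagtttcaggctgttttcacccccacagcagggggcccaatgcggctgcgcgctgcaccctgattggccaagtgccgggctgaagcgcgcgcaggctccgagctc
Tdrd1: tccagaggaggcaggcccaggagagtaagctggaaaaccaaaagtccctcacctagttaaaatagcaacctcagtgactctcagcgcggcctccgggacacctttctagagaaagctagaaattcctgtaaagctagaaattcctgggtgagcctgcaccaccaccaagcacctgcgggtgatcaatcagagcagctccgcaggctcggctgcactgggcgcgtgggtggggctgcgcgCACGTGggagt
The motif began 29 bases before the start in Ddx4, 223 bases before it in Mael and 11 bases before it in Tdrd1. A match describes the letters in this window and is not evidence of binding.

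The ends of the transcripts were searched for TTTTAT, a form of the cytoplasmic polyadenylation element through which stored messages are read out (sense strand, last 100 bases of the principal GENCODE M21 transcript). The libraries were made with poly-T selection, and any bearing of the tail or of this motif on the counts was not tested. Ddx4, Ybx2 and Ago2 held the motif, and 13.9% of 19351 protein-coding genes did. Each is shown 5′ to 3′ with the motif in capitals.
Ddx4: aaatgtttgcTTTTATaatatacaga
Ybx2: tctgaagccaTTTTATgaactgtcat
Ago2: TTTTATaaagttattttgtatggtgt
The motif began 56 bases from the transcript's end in Ddx4, 62 in Ybx2 and 100 in Ago2, the transcript with the longest 3′ untranslated region of the 10 (11064 bases, against 163 in Mael). The polyadenylation signal AATAAA began 29 bases from the end in Ddx4 and 30 in Ago2, and Ybx2 had none in its last 100 bases. As in the promoters, a match is not evidence that the element works.

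Levels per gene length split the 10 genes into 3 abundant transcripts and 7 scarcer ones. FPKM (fragments per kilobase of gene, scaled by the effective library size described under processing) was used for this order, since CPM, counts scaled to the library's depth, do not correct for length. Averaged over all 6 libraries Dazl had 158 ± 44.5 FPKM, Lsm14b 101 ± 50.1 FPKM and Eif4enif1 80.3 ± 25.3 FPKM (SD over libraries, n = 6). Ddx4 followed at 9.50 ± 3.13 FPKM, with every library below every Eif4enif1 value. Dazl ranked 223 among all genes of the table by mean FPKM, and Mael, the lowest of the 10 at 2.16 ± 0.902 FPKM, ranked 9484.

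From Ddx4 to Patl2 the ranges of neighbours in this order overlapped over the 6 libraries, of which the SD includes the difference between groups. Dicer1 had 8.86 ± 3.08 FPKM, Tdrd1 7.29 ± 3.15, Ybx2 5.55 ± 2.72 and Patl2 5.24 ± 1.93 (SD over libraries, n = 6), and each step was smaller than the SD. Within libraries Dicer1 exceeded Tdrd1 in 6 of 6 and Tdrd1 exceeded Ybx2 in 6 of 6, while Ddx4 exceeded Dicer1 in 4 and Ybx2 exceeded Patl2 in 3. Patl2 and Ago2 (2.31 ± 0.443 FPKM) did not overlap in any library, while Ago2 and Mael did. Lsm14b exceeded Eif4enif1 in 4 of 6 libraries, so those neighbours also overlapped.

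**Figure D1:**
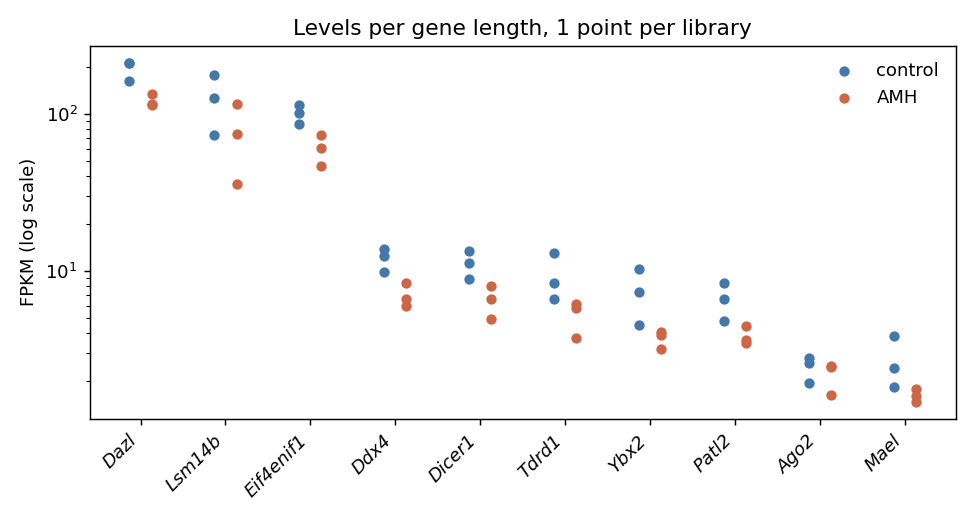
FPKM of each gene (log scale), with 1 point per library, controls in blue and AMH libraries in orange, ordered by the mean over 6 libraries. Dazl, Lsm14b and Eif4enif1 lie between 35.7 and 211 FPKM, and the other 7 genes lie at 13.8 FPKM or less.

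Between AMH and control oocytes all 10 genes had a lower mean in AMH libraries under TMM scaling, with a median log2 fold change of -0.78, where the median of all 18868 genes tested was -0.01. For 8 of the 10 genes the highest AMH library was under the lowest control, and Lsm14b and Ago2 were the exceptions. In that direction 23.3% of all genes tested did not overlap. None of the 10 passed edgeR's quasi-likelihood test at an adjusted p of 0.05: it called 0 of them, and 0% of all genes tested. The adjusted p ran from 0.116 to 0.560 over the 10 genes, and 0.116 was also the lowest of any gene. At an unadjusted p under 0.05, 7 of the 10 were lower, as were 17.3% of all genes tested. DESeq2 called 4 of the 10 lower (Dazl, Ddx4, Ybx2 and Eif4enif1, 5.71% of all genes), and limma-voom called 0 (0% of all genes lower). With sample quality weights limma-voom called 8 lower (35.8% of all genes lower).

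These directions depended on the scaling. The summed level of 17 oocyte marker genes, such as Gdf9 and Bmp15, was 25605 to 33214 CPM in controls against 14716 to 25139 CPM with AMH. Gdf9 and H1foo made up most of that sum, with means of 11087 and 9252 of 29630 CPM in controls. With AMH they had 7061 and 5814 of 18369 CPM. When libraries were scaled to that sum instead of by TMM, the median log2 fold change of the 10 genes was -0.023, with 4 positive and 6 negative, and that of all genes tested was 0.74. With library size only the median of the 10 was -0.50 (all genes 0.26), and with upper-quartile scaling -1.03 (all genes -0.23). The distance between the median of the 10 and that of all genes was -0.77 with TMM and -0.77 with oocyte-marker scaling. It was -0.77 with library size only and -0.80 with upper-quartile scaling. Scaling shifts all genes of a library together, so this distance could hardly differ between these settings. Its stability is no separate evidence of a difference. In bulk oocyte RNA, fewer oocytes among other cells and less of these transcripts per oocyte cannot be told apart.

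Markers of cumulus, oviduct and blood cells had higher mean sums in AMH libraries. The endothelial sum, carried by Pecam1, had a lower mean, and single markers ran against their sums. The sum of 18 cumulus and granulosa markers was 387 to 3942 CPM in controls against 3599 to 4664 CPM with AMH, with control 3 inside the AMH range. The sum of 8 oviduct and ciliated epithelium markers was 24.5 to 172 against 141 to 715 CPM, with AMH 3 below control 3, and that of 11 blood and immune markers 5.99 to 31.1 against 95.5 to 420 CPM. The sum of 3 endothelial markers, nearly all of it Pecam1, was 162 to 202 against 98.0 to 157 CPM. Kdr was also lower in every AMH library, but Cdh5 was higher, at 0.265 to 1.59 against 1.74 to 2.64 CPM. The lower sum therefore does not describe all 3 endothelial markers. Among cumulus and granulosa markers Cyp19a1 was lower with AMH, at 53.1 to 59.4 against 27.7 to 47.1 CPM. Ptx3 and Kitl of that list and the blood marker Ptprc also had lower means with AMH. No marker was at 0 in every library, and 3 of the 11 blood and immune markers and 1 of the 17 oocyte markers (Sohlh1) were at 0 in some. Count totals were 66392859 to 72109080 per library. The part of these marker levels in the differences of the 10 genes was not tested.

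**Figure D2:**
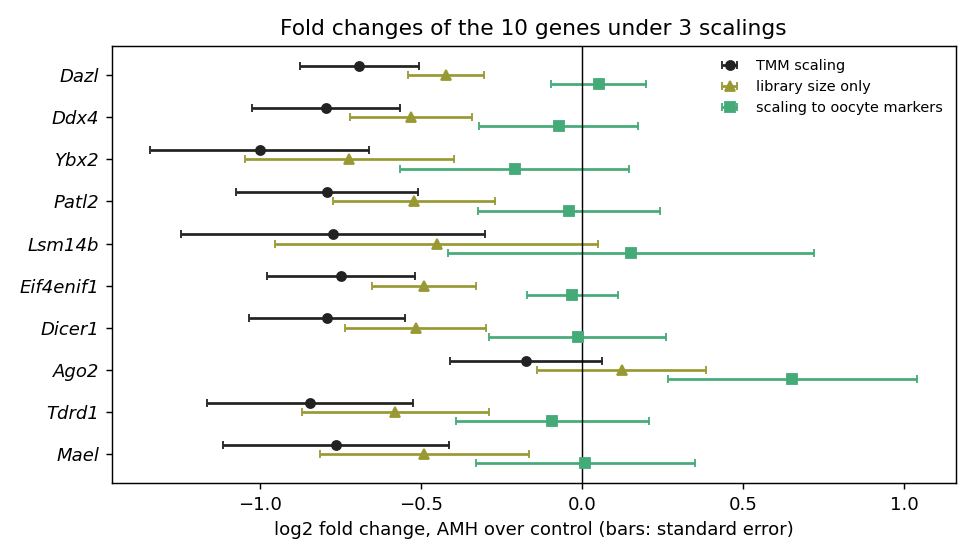
Log2 fold change of each gene, AMH over control, with its standard error (bars), under TMM scaling (circles), library size only (triangles) and scaling to 17 oocyte markers (squares). The TMM values lie between -1.002 and -0.18, and the values scaled to oocyte markers lie around 0 except for Ago2 at 0.65.

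Among the proteins of mRNA storage, Ybx2 had the lowest fold change of the 10 genes. It encodes the germ-cell Y-box protein that coats stored maternal mRNA (chromosome 11, 69935796 to 69941605, plus strand, 9 exons, 359 residues, GRCm38). Controls 1, 2 and 3 had 14.2, 20.2 and 9.07 CPM, and AMH 1, 2 and 3 had 6.05, 7.84 and 7.83 CPM. The AMH libraries lay close together below all controls, and control 3 was nearest to them. Its log2 fold change was -1.002 ± 0.34 (SE, edgeR adjusted p = 0.117), and without control 3 it was -1.26 and passed (edgeR adjusted p = 0.0209). Without control 2 it was -0.70.

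Patl2 encodes an oocyte Pat1-family repressor of translation (chromosome 2, 122120108 to 122186189, minus strand, 18 exons, 529 residues). It had 16.7, 21.4 and 12.3 CPM in controls 1, 2 and 3 and 8.61, 8.99 and 11.5 CPM in AMH 1, 2 and 3. The groups were separated only by the step from 11.5 to 12.3 CPM, between AMH 3 and control 3. Its log2 fold change was -0.79 ± 0.28 (SE, edgeR adjusted p = 0.118). B2m lies inside the Patl2 span on the opposite strand with a mean of 2095 counts against 900 for Patl2, so some reads may be shared if the counting ignored strand.

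Eif4enif1 encodes 4E-T, which binds eIF4E and blocks cap-dependent translation (chromosome 11, 3202392 to 3244588, plus strand, 19 exons, 983 residues). Controls 1, 2 and 3 had 662, 761 and 580 CPM and AMH 1, 2 and 3 had 301, 390 and 499 CPM. Every AMH library was below every control, with AMH 3 nearest to them. In edgeR's fit the log2 fold change was -0.75 ± 0.23 (SE, edgeR adjusted p = 0.116). It lies within the span of Drg1 on the opposite strand, which had a mean of 2726 counts against 36116 for Eif4enif1.

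Lsm14b encodes an Lsm-domain protein of stored oocyte ribonucleoprotein particles (chromosome 2, 180024987 to 180035465, plus strand, 9 exons, 385 residues), and it was the most variable of the 10 within groups. Controls 1, 2 and 3 had 379, 536 and 224.5 CPM, and AMH 1, 2 and 3 had 217, 339 and 110 CPM. The groups overlapped: AMH 2 lay above control 3, and AMH 3 was the lowest library of all. The coefficient of variation was 41.0% in control and 51.7% in AMH libraries, against 13.9% and 12.3% for Dazl. In controls Ybx2 and Mael came near it, at 38.5% each, while the next highest AMH value was 26.9%, in Tdrd1. AMH over control, the log2 fold change was -0.77 ± 0.47 (SE, edgeR adjusted p = 0.235), so no difference beyond the spread between libraries was shown. It ran from -1.23 without AMH 2 to -0.46 without control 2, and was -0.48 without AMH 3. With the replicate number as a block it was -0.83 ± 0.22 (SE, edgeR adjusted p = 0.200).

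Dazl, the translational activator of germ cells, was the most abundant of the 10 (chromosome 17, 50279395 to 50293636, minus strand, 11 exons, 298 residues). Controls 1, 2 and 3 had 834, 838 and 650 CPM, and AMH 1, 2 and 3 had 442, 447 and 547 CPM. Controls 1 and 2 lay together at the top, AMH 1 and 2 together at the bottom, and control 3 and AMH 3 in between. On the log2 scale the difference was -0.69 ± 0.19 (SE, edgeR adjusted p = 0.116). With oocyte-marker scaling it was 0.050.

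**Figure D3:**
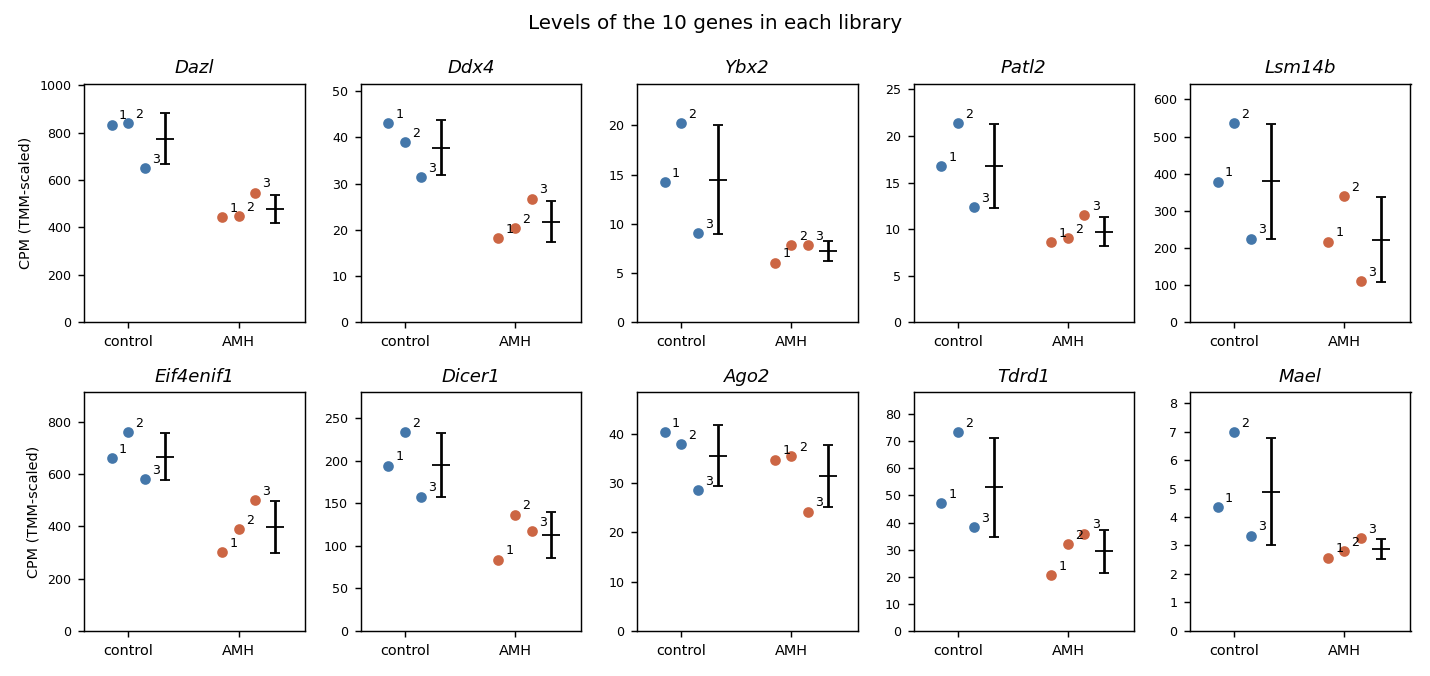
TMM-scaled CPM of each gene in each library (points, numbered by replicate), with the mean and SD of the 3 libraries of each group (black). In 8 panels the AMH points lie below all control points, and in the panels of Lsm14b and Ago2 the groups overlap.

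Of the piRNA pathway members, Ddx4 encodes the mouse Vasa helicase, a DEAD-box protein of germ granules (chromosome 13, 112598333 to 112652475, minus strand, 21 exons, 702 residues). It had 43.0, 38.9 and 31.4 CPM in controls 1, 2 and 3 and 18.2, 20.4 and 26.7 CPM in AMH 1, 2 and 3. As with Dazl, control 3 was the lowest control and AMH 3 the highest AMH library. Its log2 fold change was -0.80 ± 0.23 (SE, edgeR adjusted p = 0.116). Tdrd1 encodes a Tudor-domain protein that binds PIWI proteins (chromosome 19, 56826209 to 56870012, plus strand, 25 exons, 1172 residues). Its controls had 47.2, 73.4 and 38.4 CPM and its AMH libraries 20.6, 31.9 and 35.9 CPM in the same order. Control 2 was well above the rest, and AMH 3 lay just under control 3. In edgeR's fit the log2 fold change was -0.85 ± 0.32 (SE, edgeR adjusted p = 0.1198), and without control 2 it was -0.55.

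Mael encodes a transposon-silencing protein of germ cells (chromosome 1, 166201201 to 166238747, minus strand, 12 exons, 434 residues). Averaged over all 6 libraries it was the scarcest per length, but in controls Ago2 was scarcer (mean of 2.44 against 2.70 FPKM). Controls 1, 2 and 3 had 4.34, 6.98 and 3.34 CPM, and AMH 1, 2 and 3 had 2.58, 2.80 and 3.25 CPM, from 209 to 448 counts per library. AMH 3 lay just under control 3. AMH over control, the log2 fold change was -0.77 ± 0.35 (SE, edgeR adjusted p = 0.149), and without control 2 it was -0.43.

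Dicer1 and Ago2 form the endo-siRNA pair. Dicer1, the RNase III that makes the siRNAs (chromosome 12, 104687742 to 104751952, minus strand, 27 exons, 1906 residues) had 194, 234 and 158 CPM in controls 1, 2 and 3 and 83.8, 137 and 117 CPM in AMH 1, 2 and 3. All AMH libraries lay below all controls, and the log2 fold change was -0.79 ± 0.24 (SE, edgeR adjusted p = 0.116). Mouse oocytes are known to use a shorter Dicer1 transcript that starts in an intronic repeat, and counts per gene do not separate it from the full-length form.

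Ago2, the slicer Argonaute (chromosome 15, 73095844 to 73184935, minus strand, 19 exons, 860 residues), had 40.4, 37.9 and 28.6 CPM in controls 1, 2 and 3 and 34.8, 35.5 and 24.2 CPM in AMH 1, 2 and 3. AMH 1 and 2 lay within the control range, and AMH 3 and control 3 were the lowest libraries. On the log2 scale the difference was -0.18 ± 0.24 (SE, edgeR adjusted p = 0.560), the smallest of the 10. It ran from -0.32 without control 3 to -0.048 without AMH 3, and was -0.086 without control 1 and -0.28 without AMH 2. It was 0.12 with library size only and 0.65 with oocyte-marker scaling. The log2 ratio of Ago2 counts to summed oocyte marker counts was -9.71 ± 0.15 in control and -9.16 ± 0.74 in AMH libraries (SD, n = 3 each), with -8.78, -8.69 and -10.02 in AMH 1, 2 and 3. The other 9 genes differed between groups by -0.21 to 0.04 on that ratio. For all 10 genes the groups overlapped on it. Ago2 also overlaps Chrac1 on the opposite strand, with a mean of 693 counts against 2342 for Ago2.

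Across the 6 libraries the 8 genes other than Lsm14b and Ago2 varied together. Pearson's r of log2 CPM between pairs of members is given as a description over 6 libraries that share the group difference and their scaling. Dazl and Ddx4 had r = 0.99, and Ybx2 and Mael r = 0.97. Ago2 had a median r of 0.34 with the other 9 genes, and its highest was 0.89, with Lsm14b. Lsm14b had a median r of 0.57. On the log2 scale centred on each gene's mean, Lsm14b had -0.25 in control 3 and -1.28 in AMH 3, and Ago2 had -0.21 and -0.45. In AMH 1 they parted, with -0.31 for Lsm14b and 0.07 for Ago2.

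**Figure D4:**
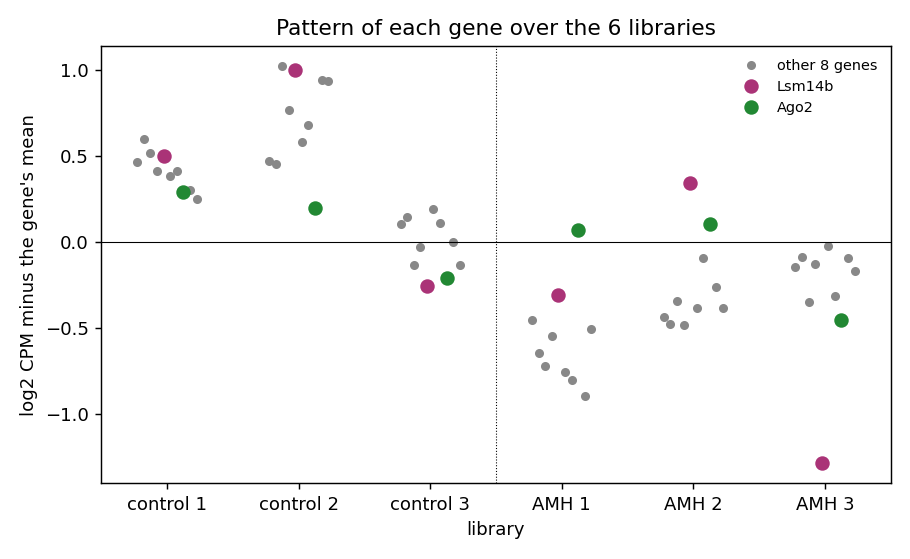
Log2 CPM of each gene minus its own mean over the 6 libraries, with Lsm14b in purple, Ago2 in green and the other 8 genes in grey, offset sideways for visibility. The grey points lie below 0 in all AMH libraries, while Ago2 is at 0.07 and 0.10 in AMH 1 and 2, and Lsm14b is at 0.34 in AMH 2.

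Genes most like the members' mean profile were sought among 10153 other protein-coding genes, each averaging 5 CPM or more. The 5 with the highest Pearson r over the 6 libraries were Ppara, Nup214, Gpr35, Rnf24 and Adm2, with r between 0.997 and 0.999. Nup214, a nuclear pore protein, had 299 ± 87.1 CPM in controls against 167 ± 23.4 CPM with AMH, and Ppara, a nuclear receptor of lipid metabolism, 19.6 ± 3.12 against 14.0 ± 0.938 CPM (SD, n = 3 each). A profile of this shape was common: 1470 of the 10153 genes had an r of at least 0.9 with it.

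Whether members passed the test depended on control 3 and AMH 3. Without control 3, edgeR called 8 of them lower, all but Lsm14b and Ago2, where 11.2% of all genes were called lower. Without AMH 3 it called Dazl and Eif4enif1 lower (6.73% of all genes). With both left out it called 6 lower (Dazl, Eif4enif1, Tdrd1, Ddx4, Patl2 and Ybx2, 21.6% of all genes), at a median log2 fold change of -1.04. When control 1, control 2, AMH 1 or AMH 2 was left out, it called 0.

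Other genes of the piRNA pathway lay mostly lower in AMH libraries under TMM scaling, and none passed the test. Of 21 genes in that list 20 were tested (Piwil4 fell under the filter), and edgeR called 0. The log2 fold change was negative in 18, with a median of -0.76, in 11 the groups did not overlap with AMH lower, and 12 were lower at an unadjusted p under 0.05, where the shares over all genes tested were 23.3% and 17.3%. With oocyte-marker scaling the median was 0.0088, with 11 positive and 9 negative. Asz1, a germ-granule protein, had 84.8 ± 6.64 CPM in controls against 51.4 ± 11.5 CPM with AMH, and the Tudor-domain gene Tdrd5 had 128 ± 48.3 against 63.6 ± 7.34 CPM (SD, n = 3 each). Piwil1, a PIWI protein, had 122 ± 17.0 against 76.2 ± 17.0 CPM. In all 3 the groups did not overlap.

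The other microRNA and siRNA pathway genes were mixed. Of 16 tested, edgeR called 0, 6 had a negative and 10 a positive log2 fold change, and the median was 0.12 with TMM, -0.09 with upper-quartile scaling and 0.83 with oocyte-marker scaling. At an unadjusted p under 0.05, 2 were lower and 2 higher, and over all genes tested 17.3% were lower and 20.2% higher. Ago3 had 112 ± 8.02 CPM in controls against 65.6 ± 13.5 CPM with AMH, and the RNA editing enzyme Adar had 106 ± 12.3 against 68.0 ± 8.62 CPM (SD, n = 3 each). Ago1, the neighbour of Ago3 on chromosome 4, had 0.682, 0.171 and 1.12 CPM in controls 1, 2 and 3 and 3.70, 4.20 and 3.14 CPM in AMH 1, 2 and 3. Every AMH library lay above every control, from 11 to 74 counts in control and 206 to 321 counts in AMH libraries, and the log2 fold change was 2.48 ± 0.64 (SE, edgeR adjusted p = 0.116).

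Other mRNA storage and germ-cell RNA-binding genes had mostly lower values under TMM scaling. Of 30 genes 29 were tested (Nanos3 fell under the filter) and edgeR called 0. The log2 fold change was negative in 21 and positive in 8, and their median was -0.40 under TMM and 0.29 under oocyte-marker scaling. At an unadjusted p under 0.05, 12 were lower and 4 higher, beside 17.3% and 20.2% of all genes tested. Igf2bp2, which binds and stabilises mRNA, had 1024 ± 229 CPM in controls against 594 ± 79.5 CPM with AMH, and Igf2bp3 had 119 ± 20.2 against 69.3 ± 9.93 CPM (SD, n = 3 each). Nanos1, a germ-cell translational repressor, had 62.1 ± 13.2 against 36.6 ± 4.75 CPM. The paralog Ybx1 had a higher mean with AMH, 437 ± 61.6 against 629 ± 132 CPM, unlike Ybx2, while Lsm14a had a lower one, 918 ± 90.2 against 580 ± 116 CPM, as did Lsm14b. Ybx3 and Patl1 of the same list had lower means with AMH, and their groups overlapped. These paralogs were singled out after their values were seen. Over the 3 lists together DESeq2 called 4 genes higher and 11 lower (15.7% and 5.71% of all genes), and limma-voom called 0 (0% of all genes lower). Adding quality weights to limma-voom gave 14 higher and 38 lower (39.1% and 35.8% of all genes).

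**Figure D5:**
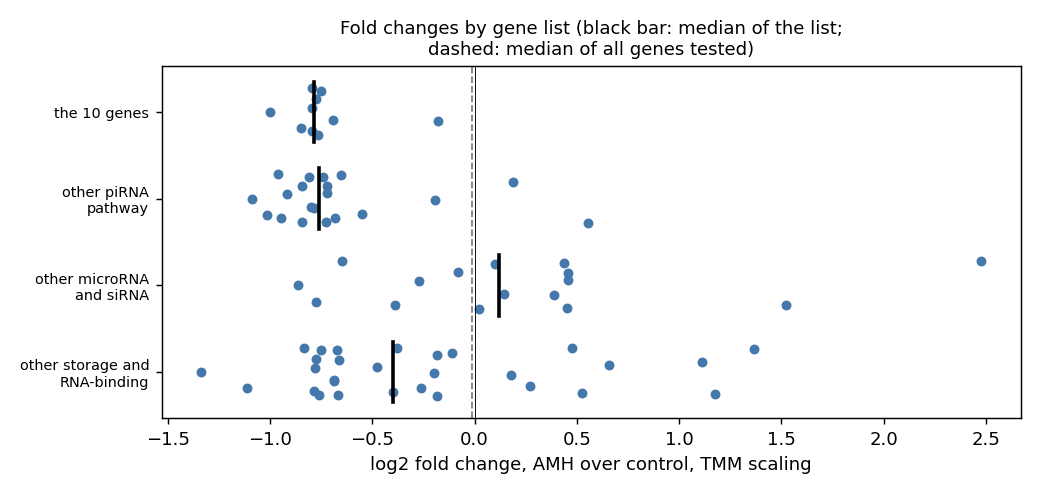
Log2 fold change of each tested gene, AMH over control with TMM scaling, for the 10 genes and the 3 lists, with 1 point per gene (spread vertically for visibility), the list median as a black bar and the median of all genes tested as a dashed line. The list medians are -0.78, -0.76, 0.12 and -0.40 from top to bottom.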

How the data were processed

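The authors deposited whole-number counts per gene and FPKM values, with a column for each library. The submitters' processing notes name DESeq2 1.20.0, featureCounts 1.5.0-p3 and HISAT2 2.0.5, and as builds GRCm38 and mm10. What each tool did, the filters and whether strand was used: not given in the sources used here. FPKM as deposited equals count over gene length and an effective library size, which was 0.924 to 0.997 of the count total in control and 1.05 to 1.18 of it in AMH libraries. RNA was amplified with a SMART kit, per the labels' protocols.

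Libraries were grouped by their titles. The test was edgeR 4.0.16 (R 4.3.3), quasi-likelihood and robust, with TMM scaling, filterByExpr and Benjamini-Hochberg adjustment over 18868 genes. CPM is on the TMM-scaled library size, and standard errors come from the F statistic. Alternatives were DESeq2 1.42.0, limma 3.58.1, other scalings and filters, a replicate block and left-out libraries. FPKM was tested as log2(FPKM + 1), and with 0.1 added, where 3 or more libraries exceeded 1 FPKM. The tests were tried on simulated data. The 10 genes, the lists and the settings were chosen with earlier results of these data known. Named genes were the 10, the 3 of smallest p per list with at least 1 CPM, and the 5 most similar in profile. The search for TTTTAT was added later.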

Additional observations from a re-analysis of the deposited data

How the results depend on the processing

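The number of the 10 genes called, 0 with edgeR and TMM, was 4 with DESeq2, 8 with limma-voom and sample quality weights, 6 with control 3 and AMH 3 both left out, and 0 to 8 when 1 library was left out. All were lower, and the shares of all genes called lower were 5.71%, 35.8%, 21.6% and 0% to 11.2%, in the same order. For the 3 lists together the number called was 0 of 65, 15 of 65 with DESeq2 and 52 of 65 with quality weights. Of all genes, DESeq2 called 15.7% higher and 5.71% lower, and quality weights gave 39.1% and 35.8%. With both left out it was 42 of 66, of which 31 were lower, beside 21.6% of all genes. With 1 library left out it was 0 to 33. The 33 of 66, without control 3, held 25 lower, beside 11.2% of all genes. The shares of all genes called higher with libraries left out are not given here. The median log2 fold change of the 10 was -0.50 with library size only, -0.023 with oocyte-marker scaling and -1.04 with both left out, and -0.96 to -0.62 with 1 left out. With oocyte-marker scaling the log2 fold change turned positive for Dazl (0.050), Lsm14b (0.15), Ago2 (0.65), Mael (0.0093), Adar (0.14) and Piwil1 (0.044), and that of Ago2 also with library size only (0.12). The cause of the lost and gained calls was not tested. With the replicate number as a block, edgeR called 0 of the 10 and 0 list genes, where 0% of all genes were called lower. The median of the 10 was then -0.79. Same-numbered libraries correlated at 0.06, -0.10 and -0.25 in their deviations from the group means. Other pairs ran from -0.30 to 0.32, and 3 libraries per group are too few to settle whether the numbers pair libraries. Each group holds 3 libraries, and the effect of depth was not tested. Among the named genes Ago1 rests on 11 to 74 counts in controls and Mael on 209 to 448 counts in all libraries.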
